A study of Mus musculus with 721 samples.

Results

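Neurod1, Neurod2, Nkx2-2, Insm1, Isl1, Pax6, Rfx6, Runx1t1, Tox3 and Cryba2 are 10 genes that follow the transcription factor Neurog3 in cells turning into pancreatic islet cells, whichever hormone those cells later make. They were taken by symbol from a gene expression table of 32913 entries, and each symbol matched 1 entry. The cells were single eGFP-positive cells sorted from the pancreas of embryos of Neurogenin 3-eGFP mice on 5 embryonic days, E11.5 to E15.5, and turned into cDNA by the SMART-seq protocol. No treatment was given, and the same reporter was carried by all embryos, so the comparisons are between cells. E11.5 and E12.5 were sequenced in run 1 only, and E13.5, E14.5 and E15.5 in both of 2 runs, which makes 8 cell sets. Of 721 deposited cells, 658 had at least 100000 fragments and 1500 genes at 1 FPKM (fragments scaled to transcript length and to the depth of the cell) and were kept. Kept cells had a median of 587177 fragments, with set medians of 480057 to 844416. The labels name no animals, pooled or single, and do not say how the reporter was built. The eGFP protein can outlast the Neurog3 transcript, so the sort also takes cells in which Neurog3 is no longer read.

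Neurog3 is a basic helix-loop-helix factor that is switched on briefly in cells of the pancreatic epithelium and is needed for every islet lineage. It turns on a set of further transcription factors, which hold the endocrine programme after Neurog3 itself is gone, and loss of several of them in mice removes or misdirects islet cells. Fev is another factor of this route, found after Neurog3 and before the hormones. Among the genes described here, Neurod1 and Neurod2 are relatives of Neurog3 with the same DNA-binding fold, Nkx2-2, Isl1 and Pax6 carry homeodomains, and Insm1 is a zinc-finger repressor. Rfx6 is a winged-helix factor, mutated in a human syndrome of neonatal diabetes, Runx1t1 is a corepressor, and Tox3 is an HMG-box protein. Cryba2 is the exception: it encodes a lens-type beta-crystallin, not a DNA-binding protein.

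Cells were sorted by 3 measurements that do not involve the 10 genes. Neurog3 and Fev counted as present at 10 FPKM and a hormone (Ins1, Ins2, Gcg, Sst, Ppy or Ghrl) at 100 FPKM. This gave 174 no-marker cells with none of them, 163 Neurog3-only cells, 79 Neurog3-and-Fev cells, 60 Fev-only cells and 118 hormone cells without Neurog3. A further 64 hormone cells still carried Neurog3 and stand outside the order. A state in a set was used where it held at least 5 cells, and the set, not the cell, was the unit of every test. The order of the states is that of marker genes, and no cell was followed over time.

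The start regions of 6 of the genes are shown, since groups of the 10 moved together between the states below. Helix-loop-helix factors such as Neurog3 and the Neurod proteins bind DNA at the E-box CANNTG. The RefSeq windows (GRCm38.p6) run from 250 bases before to 50 after the annotated start and are written 5′ to 3′ along the gene, with every CANNTG in capitals. Neurod1 (chr2:79456587-79456886, minus strand), Neurod2 (chr11:98329596-98329895, minus strand) and Nkx2-2 (chr2:147186353-147186652, minus strand) stand for the genes that reached at least 50% of their highest share of cells in the Neurog3-only state.
Neurod1: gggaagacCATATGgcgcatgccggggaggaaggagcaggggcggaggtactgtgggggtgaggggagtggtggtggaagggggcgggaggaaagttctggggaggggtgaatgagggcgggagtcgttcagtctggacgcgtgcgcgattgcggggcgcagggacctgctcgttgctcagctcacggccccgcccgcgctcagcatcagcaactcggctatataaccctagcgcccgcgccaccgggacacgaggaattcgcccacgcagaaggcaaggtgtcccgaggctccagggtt
Neurod2: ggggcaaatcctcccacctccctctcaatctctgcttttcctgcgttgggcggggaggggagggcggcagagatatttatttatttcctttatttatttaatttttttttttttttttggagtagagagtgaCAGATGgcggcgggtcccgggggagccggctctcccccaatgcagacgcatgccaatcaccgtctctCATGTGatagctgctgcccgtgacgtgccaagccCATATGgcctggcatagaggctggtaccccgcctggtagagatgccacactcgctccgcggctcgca
Nkx2-2: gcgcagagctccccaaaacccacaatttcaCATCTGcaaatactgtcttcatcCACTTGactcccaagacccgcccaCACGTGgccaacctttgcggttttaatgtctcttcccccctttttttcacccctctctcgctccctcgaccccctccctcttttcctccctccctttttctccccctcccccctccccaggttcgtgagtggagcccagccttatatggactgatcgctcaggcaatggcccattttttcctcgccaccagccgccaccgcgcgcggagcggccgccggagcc
Pax6 (chr2:105682213-105682512, plus strand) and Cryba2 (chr1:74893094-74893393, minus strand) stand for the genes that became frequent with Fev, and Isl1 (chr13:116309639-116309938, minus strand) for the one whose share of cells grew latest.
Pax6: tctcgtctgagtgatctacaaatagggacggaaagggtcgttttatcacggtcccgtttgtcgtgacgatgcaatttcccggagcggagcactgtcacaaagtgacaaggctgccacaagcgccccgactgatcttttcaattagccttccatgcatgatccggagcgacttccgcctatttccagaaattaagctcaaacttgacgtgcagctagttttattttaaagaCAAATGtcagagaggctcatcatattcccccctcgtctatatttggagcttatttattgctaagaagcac
Cryba2: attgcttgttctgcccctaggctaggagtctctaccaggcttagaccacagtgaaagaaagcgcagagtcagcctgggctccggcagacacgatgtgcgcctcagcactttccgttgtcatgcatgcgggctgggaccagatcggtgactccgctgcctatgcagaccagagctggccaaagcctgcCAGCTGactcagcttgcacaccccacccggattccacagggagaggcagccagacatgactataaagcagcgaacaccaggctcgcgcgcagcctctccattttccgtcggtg
Isl1: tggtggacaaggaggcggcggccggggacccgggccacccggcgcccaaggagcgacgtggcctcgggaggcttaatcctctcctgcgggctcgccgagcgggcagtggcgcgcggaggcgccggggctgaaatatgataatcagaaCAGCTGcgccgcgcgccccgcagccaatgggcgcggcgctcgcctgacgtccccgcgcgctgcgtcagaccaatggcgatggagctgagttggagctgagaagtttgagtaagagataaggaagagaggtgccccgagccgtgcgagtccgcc
The 6-base form CAGATG or its reverse complement CATCTG was found in 2 of the 8 genes that had a window, Neurod2 and Nkx2-2, and in 17.2% of 32851 windows of all genes. CAGCTG, which reads the same on both strands, was found in 3 of 8 (Cryba2, Isl1 and Tox3) and in 16.3% of all. CANNTG, which includes both forms and also reads the same on both strands, was in all 8 and in 72.3% of all windows. A second annotated Pax6 start, at chr2:105668646-105668945, held none. All of these are matches of letters and not measured binding. Insm1 and Runx1t1 had no window and are named only.

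Nkx2-2, Insm1 and Rfx6 were higher in Neurog3-only than in no-marker cells. On E13.5 to E15.5 the no-marker cells were themselves rich in endocrine genes. The median sum of 12 endocrine markers was 6963 FPKM in them and 1890 in Neurog3-only cells of those days. The place of no-marker cells before Neurog3 is thus by definition only, and a rise in this step means a higher value in Neurog3-only cells. Neurod2 also passed the threshold, but it entered the test through the states in which it is high and is given as a description. The 4 fitted differences were 1.60 to 1.85 on the scale of log2(mean FPKM + 1). For the scarce Neurod2 that size depends on the pseudocount, being 3.53 with 0.1 and 0.42 with 10 in place of 1. Neurod1, Isl1, Pax6, Runx1t1 and Cryba2 did not pass the test, and Tox3 missed it narrowly.

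Nkx2-2, which is needed for beta cells and represses the alternative fates of islet cells, had set means of 1.01 to 26.98 FPKM (median 10.7, 6 sets) in no-marker cells and 10.1 to 114 (median 44.3, 8 sets) in Neurog3-only cells. The highest no-marker set lay above the lowest Neurog3-only sets, but within each of the 6 sets holding both states Neurog3-only cells were higher. The difference was 1.85 ± 0.36 (log2 of mean FPKM + 1, SE; adjusted p = 0.00516, limma with Benjamini-Hochberg adjustment over all genes tested). Insm1 is a repressor needed for endocrine cells to leave the epithelium and mature. Its set means went from 0 to 15.4 FPKM (median 8.30) to 2.08 to 38.03 (median 26.4), again higher in 6 of 6 sets, with a difference of 1.72 ± 0.38 (adjusted p = 0.0126). Rfx6, which directs islet cell formation in mouse and human, had set means of 4.30 to 179 FPKM (median 75.7) and 31.2 to 375 (median 125). It was higher in 6 of 6 sets, by 1.60 ± 0.39 (adjusted p = 0.0291).

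Neurod2, better known from the developing brain, was the scarcest of the 10 and had its highest share in Neurog3-only cells. It was at 10 FPKM in 0 of 174 no-marker cells (95% exact upper limit 2.10%), in 27 of 163 Neurog3-only cells and in 5 of 79 Neurog3-and-Fev cells. It was then at that level in 1 of 60 Fev-only cells and was listed at 0 in every one of the 118 hormone cells (upper limit 3.08%). Set means in Neurog3-only cells were 0 to 10.6 FPKM (median 3.44), against 0 to 0.199 in no-marker cells, a difference of 1.72 ± 0.45 (adjusted p = 0.0489, higher in 5 of 6 sets). Among cells that had it, the median was 19.9 FPKM in the Neurog3-only state. Neurod2 passed the filter on low values through the Neurog3 states, in which it was high, so its call supports nothing by itself, and without the filter neither Neurod2 (adjusted p = 0.0593) nor Rfx6 (0.062) was called. Tox3, whose role in the pancreas is little known, had a smaller fitted difference that did not pass (1.24 ± 0.35, adjusted p = 0.0704) and was higher in 5 of 6 sets.

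The comparison called 182 of 15918 genes (1.14%), and 123 (0.773%) as rising, against 4 of 10 here, or 3 with Neurod2 left aside. The median difference of the 10 was 0.78, against 0.03 for all genes tested. In the no-marker cells of E11.5 and E12.5 (131 cells), 6 of 10 acinar or tip markers, 10 of 10 leukocyte markers and 5 of 8 endothelial markers reached 10 FPKM in at least 10% of cells, and their set mean sums were 578 to 2092, 2930 to 4063 and 45.9 to 494 FPKM. The median sums over cells were 119.2, 6.83 and 8.16 FPKM, so the high leukocyte and endothelial means came from a part of the cells. The 13 Neurog3-only cells of those days held 7 of 10 acinar or tip markers, with set mean sums of 1417 to 5552 FPKM, and 2 of 10 leukocyte markers, with sums of 3.48 and 3607. Their median sums over cells were 641 and 5.21 FPKM. On E13.5 to E15.5 the median sum of 8 duct or trunk markers was 32.7 FPKM in no-marker and 349.9 in Neurog3-only cells, with 4 and 5 of them in at least 10% of cells. Their part in the difference was not tested. In E13.5 to E15.5 alone, where none of the acinar or tip markers reached that frequency in either state, 6 of the 10 genes were called: the same 4 rose, and Pax6 (-2.37) and Cryba2 (-1.63) fell. That fit called 842 of 15571 genes (5.41%), with a median shift of 0.24 over all genes. The calls leaned on single sets: 0 of the 10 genes were called without E14.5 run 1, 1 (Nkx2-2) if either E15.5 run 1 or E14.5 run 2 was left out, 2 without E13.5 run 2, and 3 without E15.5 run 2, E11.5 run 1 or E13.5 run 1, the third after Nkx2-2 and Insm1 being Rfx6, Neurod2 and Tox3 in turn. Those fits called 0.218%, 0.52% and 0.371% of all genes without E14.5 run 1, E15.5 run 1 and E14.5 run 2. Without E13.5 run 2, E15.5 run 2, E11.5 run 1 and E13.5 run 1 it was 0.897%, 0.875%, 2.1% and 0.714%. A further fit left out E12.5 run 1 and E13.5 run 1 together, 2 sets treated as low in GC-rich transcripts, for which no values are given here. In that fit Neurod2 (adjusted p = 0.0521) and Rfx6 (0.0581) were not called and Tox3 was (0.034). That fit called 1.6% of all genes.

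**Figure D1:**
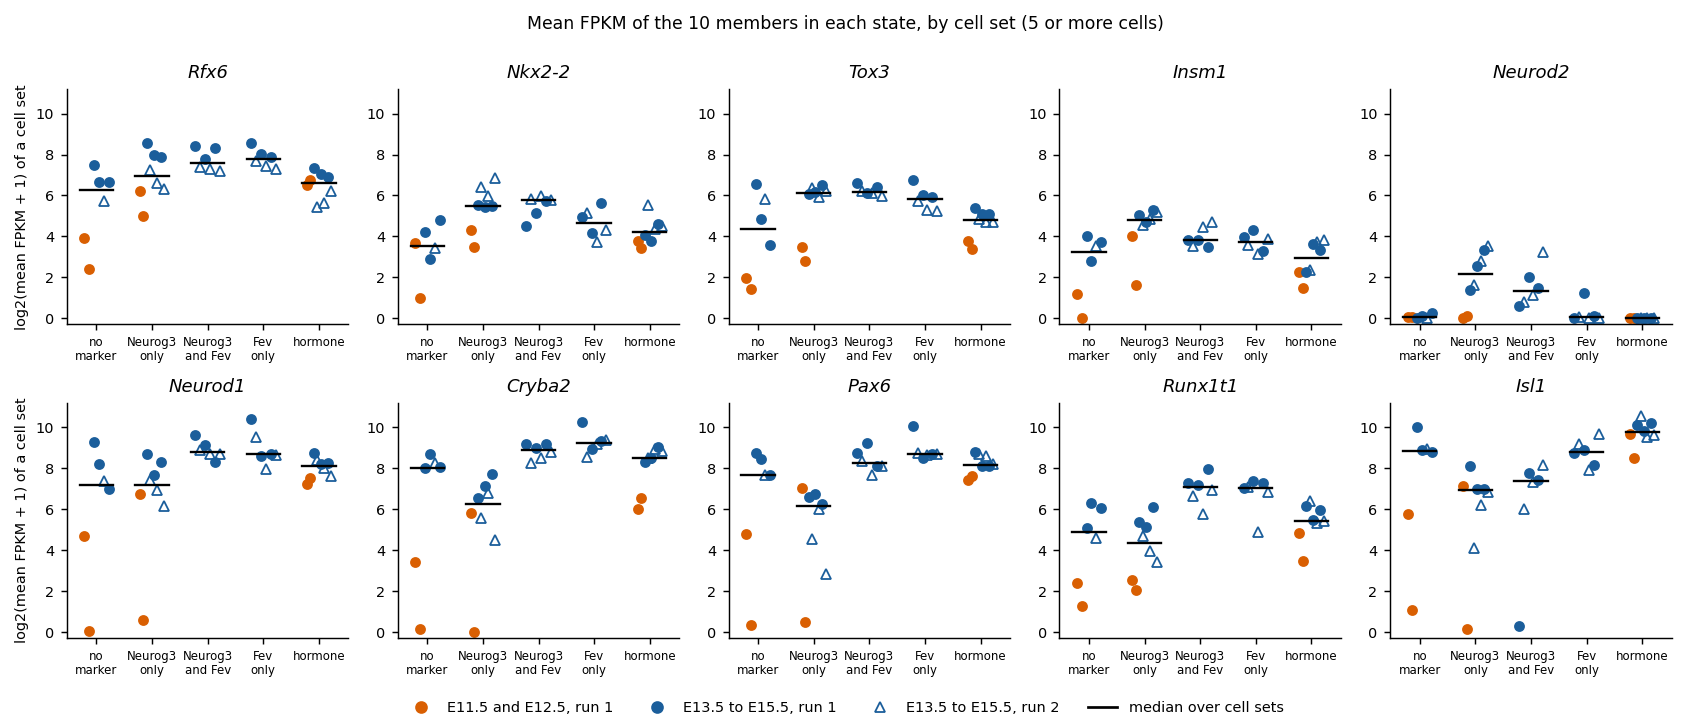
Mean FPKM of each of the 10 genes in each state (vertical axis, log scale after adding 1), with 1 point per cell set and the states in the order no-marker, Neurog3-only, Neurog3-and-Fev, Fev-only and hormone. Neurod2 peaks in Neurog3-only cells and is at 0 in all 8 hormone sets, while Pax6, Runx1t1 and Cryba2 step up between the Neurog3-only and the Neurog3-and-Fev state.

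Pax6, Runx1t1 and Cryba2 rose with Fev. Between Neurog3-only and Neurog3-and-Fev cells they were higher in 6 of 6 sets and went up by 2.18 to 2.68 on the log2 scale. Neurod1 was higher in 6 of 6 sets without passing the test, and Neurod2 and Insm1 were lower in 6 of 6 without passing it.

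Runx1t1 is a corepressor of the ETO family, known mostly from leukaemia fusions. In Neurog3-only cells its set means were 3.09 to 68.5 FPKM (median 19.7, 8 sets), and in Neurog3-and-Fev cells 54.4 to 251 (median 133, 6 sets). The ranges overlapped only through the E15.5 run 1 and E14.5 run 2 sets, and the difference was 2.18 ± 0.33 (adjusted p = 0.000696, limma). Pax6, a paired-box factor needed for alpha cells and for hormone production in general, went from 0.390 to 129 FPKM (median 69.5) to 205 to 601 (median 301). No Neurog3-only set reached the lowest Neurog3-and-Fev set, and the difference was 2.68 ± 0.61 (adjusted p = 0.0252). Cryba2 went from 0 to 214 FPKM (median 74.6) to 302 to 589 (median 479), also without overlap, and differed by 2.32 ± 0.56 (adjusted p = 0.0427).

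Neurod1, which beta cells need to mature and survive, stood at 0.499 to 411 FPKM (median 146.0) in Neurog3-only cells and at 318 to 793 (median 441) in Neurog3-and-Fev cells. The difference of 1.5 ± 0.55 had an adjusted p of 0.268. The test passed in E13.5 to E15.5 alone (1.36, adjusted p = 0.00224) and without E12.5 run 1 (1.24, adjusted p = 0.0285). Insm1 went the other way, from a median of 26.4 FPKM to 13.1, with a difference of -0.97 ± 0.38 (adjusted p = 0.313).

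The comparison called 104 of 15918 genes (0.653%), 67 of them (0.421%) as rising, against 3 of 10 here, and the median difference was 0.27 for the 10 and -0.03 for all genes tested. Summed duct or trunk markers had set mean sums of 117 to 716 FPKM in Neurog3-and-Fev cells and 520 to 1528 in Neurog3-only cells of E13.5 to E15.5, with 3 and 5 of 8 markers in at least 10% of cells, and their part in the difference was not tested. Leaving out any 1 of the 6 later sets (E13.5 and on) left 1 gene called, Runx1t1, with Pax6 at adjusted p = 0.0676 to 0.209 and Cryba2 at 0.0926 to 0.237, and without E12.5 run 1 Neurod1 joined the 3. Without a later set 0.19 to 0.407% of all genes were called, and without E12.5 run 1 0.982%.

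In the order of the states, Isl1 was the last of the 10 to become frequent. Isl1 is a LIM-homeodomain factor needed for all islet cell types after their specification. Set means were 0.109 to 277 FPKM in Neurog3-only cells (median 120.0), 0.217 to 283 in Neurog3-and-Fev cells (median 166), 245 to 809 in Fev-only cells (median 447) and 366 to 1488 in hormone cells (median 868). Each of the 6 sets was higher in its Fev-only than in its Neurog3-and-Fev cells, and 5 of 6 were higher in hormone than in Fev-only cells. Neither step passed the test over all genes: the first was 2.59 ± 0.91 (adjusted p = 0.372) and the second 1.77 ± 0.87 (adjusted p = 0.483). Where cells were averaged on the log scale the second step passed (4.0, adjusted p = 0.00448), a setting that weighs the share of cells with Isl1 over the highest cells. From Neurog3-only to Neurog3-and-Fev cells Isl1 was higher in 5 of 6 sets, but the fitted difference was -0.42 ± 0.87 (adjusted p = 0.945, limma).

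From Neurog3-and-Fev to Fev-only cells, 0 of the 10 genes were called by limma, and 2 of 15918 genes were (0.0126%; 1282 had an unadjusted p under 0.05). Neurod2 was lower in 6 of 6 sets (-1.31 ± 0.47, adjusted p = 0.397) and Nkx2-2 in 5 of 6 (-0.84 ± 0.38, adjusted p = 0.549). From Fev-only to hormone cells, 0 of the 10 were called and 132 of all genes (0.829%; 1637 with an unadjusted p under 0.05), with a shift of 0.11 in the median of all genes. Rfx6, Pax6, Tox3 and Cryba2 were lower in hormone cells in 6 of 6 sets. The fitted differences of Pax6, Cryba2 and Tox3 were small, at -0.07 ± 0.61, -0.20 ± 0.56 and -0.56 ± 0.35 (adjusted p = 0.996, 0.972 and 0.612, limma). That fit also holds hormone cells of E11.5 and E12.5, which had no Fev-only cells. The largest fitted drop was that of Rfx6, from set means of 157 to 381 FPKM (median 222) to 41.8 to 159 (median 97.7). The highest hormone set lay just above the lowest Fev-only set, the others were apart, and the difference was -0.97 ± 0.39 (adjusted p = 0.322). It passed in E13.5 to E15.5 alone (-1.40, adjusted p = 0.0135). Runx1t1 differed by -0.74 ± 0.33 (adjusted p = 0.417) and passed where a hormone counted from 1000 FPKM (-1.58, adjusted p = 0.0208).

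**Figure D2:**
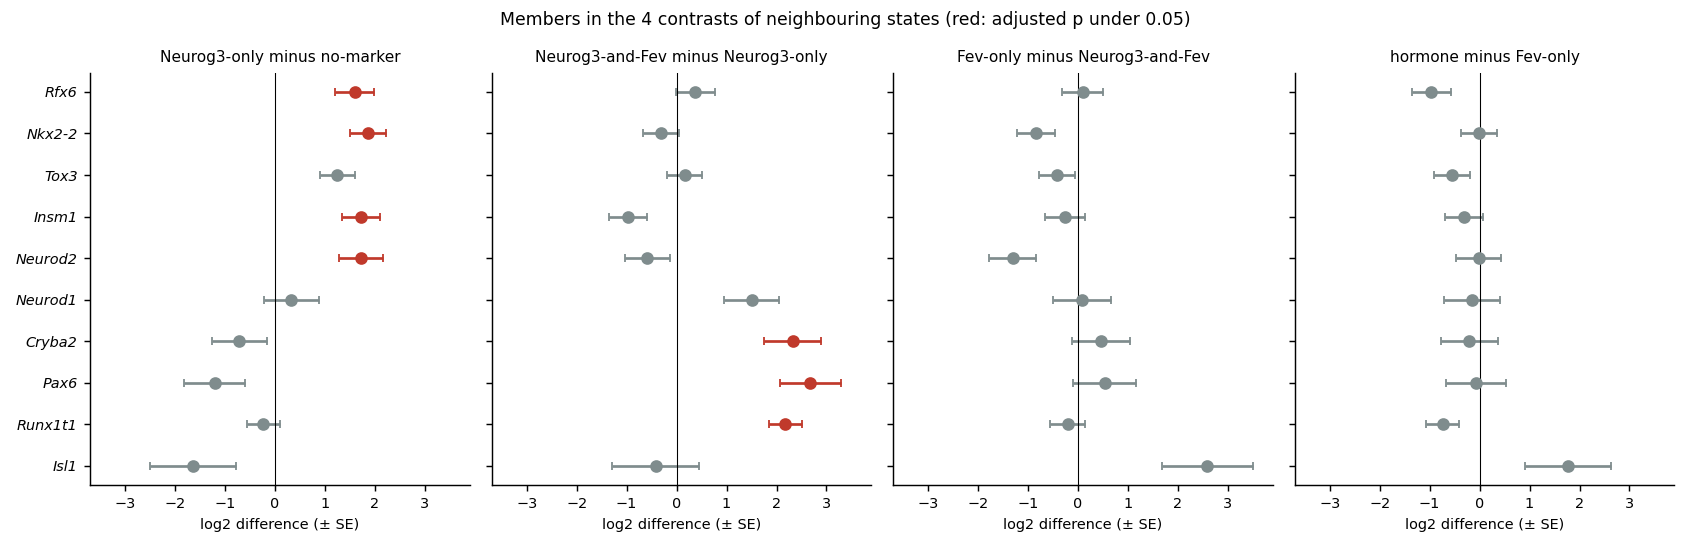
Fitted log2 difference of each of the 10 genes (horizontal axis, with its standard error as a bar) in the 4 steps between neighbouring states, marked where the adjusted p was below 0.05. Marked points are Nkx2-2, Insm1, Neurod2 and Rfx6 in the first step and Pax6, Runx1t1 and Cryba2 in the second, and there is none in the last 2 steps.

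The share of cells carrying each gene gives its order of onset. Onset was read as the first state in which the share of cells at 10 FPKM reached 50% of the highest share, with sets weighted equally. Read over all 5 states, Neurod2, Nkx2-2 and Tox3 set in with Neurog3 and the other 7 already in no-marker cells. That reading turned on the 43 no-marker cells of E13.5 to E15.5. Neurod1 was present in 95.3% of them, Pax6 in 90.7%, Cryba2 in 81.4% and Isl1 in 79.1%, and Neurod2 in 0 of 43. In the 131 no-marker cells of E11.5 and E12.5 each of the 10 genes was present in at most 19 cells, the highest count being that of Nkx2-2. The no-marker group therefore held cells without the endocrine genes on the early days and cells rich in them later, and its place before Neurog3 is that of the definition only.

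With the no-marker state left out, an ordering added after the values were seen, 6 genes set in with Neurog3, 3 with Fev and 1, Isl1, in Fev-only cells. The 64 hormone cells that still carried Neurog3 are outside this order. Most of them held Isl1, so Isl1 was not confined to cells without Neurog3. In Neurog3-only cells the mean share over 8 sets was 85.04% ± 23.4 (SD) for Rfx6, 74.6% ± 26.2 for Nkx2-2, 72.5% ± 35.6 for Tox3, 66.9% ± 32.6 for Neurod1, 58.4% ± 23.3 for Insm1 and 14.9% ± 14.7 for Neurod2. The SDs exceed the gaps between neighbours in this row, so the order among the first 5 is not resolved. Cryba2 (36.8% ± 19.7), Runx1t1 (29.8% ± 11.7), Pax6 (28.8% ± 15.4) and Isl1 (16.1% ± 9.38) followed.

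In Neurog3-and-Fev cells Cryba2 stood at 91.8% ± 8.59 of cells, Pax6 at 91.5% ± 6.85 and Runx1t1 at 86.5% ± 8.57 (6 sets), while Isl1 stood at 34.1% ± 25. Isl1 then reached 64.9% ± 10.1 in Fev-only cells and 91.6% ± 8.88 in hormone cells. Among the genes that set in with Neurog3, most had lower shares in hormone cells, and Neurod1 a higher one. Insm1 stood at 58.4% of Neurog3-only cells and 25.5% ± 20.9 of hormone cells, Nkx2-2 stood at 52.96% ± 15.1 there and Tox3 at 58.5% ± 14.8. Neurod1 (93.2% ± 9.95), Pax6 (92.5% ± 6.42) and Cryba2 (87.4% ± 11.7) were still in most hormone cells.

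The ordering without the no-marker state was the same for all 10 genes within run 1, within run 2 and within E13.5 to E15.5. It depended on the level set for onset. At 25% of the highest share Pax6, Runx1t1 and Cryba2 counted as present with Neurog3 and Isl1 with Fev, and at 75% Neurod1 moved to the Neurog3-and-Fev state and Isl1 to the hormone state.

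**Figure D3:**
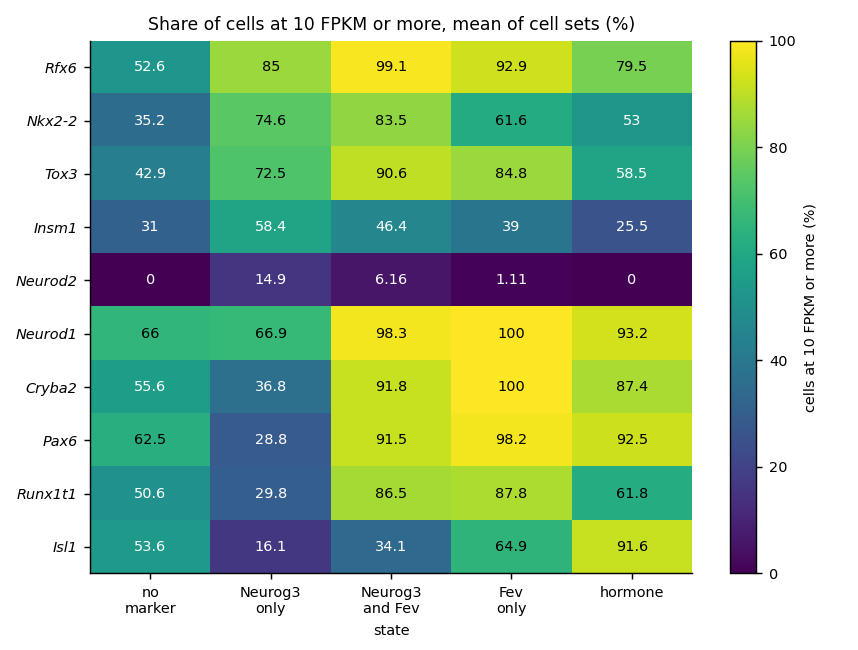
Share of cells at 10 FPKM or more (percent) for each gene by state, as the mean over cell sets. Isl1 goes from 16.1% of Neurog3-only to 91.6% of hormone cells, and Insm1 goes from 58.4% to 25.5%.

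In single Neurog3-only cells, cells with a late gene mostly also held Rfx6 and Neurod1, but often lacked Insm1. Of 163 such cells, 84 had Rfx6 without Cryba2 and 5 had Cryba2 without Rfx6. Rfx6 stood without Pax6 in 102 cells and Pax6 without Rfx6 in 3, and for Rfx6 and Isl1 the counts were 123 and 1. Nearly every cell with a late gene thus also held Rfx6. Neurod1 stood without Pax6 in 79 cells and Pax6 without Neurod1 in 2. Of the 27 cells with Neurod2, 26 had Nkx2-2, 26 had Rfx6, 26 had Tox3 and 25 had Insm1, but 9 had Pax6. Insm1 was missing from 23 of 50 cells with Pax6, 26 of 70 with Cryba2, 23 of 55 with Runx1t1 and 11 of 27 with Isl1, and Nkx2-2 from 13 of the 50 with Pax6. Other pairs were also less one-sided: Nkx2-2 stood without Insm1 in 38 cells and Insm1 without it in 12, and Pax6 without Cryba2 in 17 and Cryba2 without Pax6 in 37. A gene that is more frequent gives such counts by frequency alone, and a transcript missed in a single cell reads as absent, so the counts describe presence together and no sequence of events.

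Within the Neurog3-only cells, 6 of the genes had a higher share in each higher class of Neurog3 level. Neurog3 itself ranged from 13.2 to 10880 FPKM (median 1258), and cells were split at 100 and 1000 FPKM into 19, 52 and 92 cells. Insm1 was present in 21.1%, 48.1% and 84.8% of these (95% exact intervals 6.05 to 45.6%, 34.01 to 62.4% and 75.8 to 91.4%). Nkx2-2 was present in 31.6%, 78.8% and 93.5%, and Tox3 in 36.8%, 82.7% and 95.7%. Rfx6 was already at 73.7% in the lowest class and reached 94.6%, Neurod1 stood at 52.6%, 80.8% and 81.5%, and Neurod2 stood at 5.26%, 5.77% and 25%. The intervals of Rfx6 and of Neurod1 overlapped in all 3 classes. Neurod2 hardly differed between the lowest and the middle class (1 of 19 and 3 of 52 cells). Isl1 ran the other way, with 42.1%, 17.3% and 10.9%. Runx1t1 (52.6%, 34.6% and 29.3%), Pax6 (42.1%, 36.5% and 25%) and Cryba2 (57.9%, 42.3% and 40.2%) also had lower shares in each higher class, with overlapping intervals in all 3 classes. Cells are pooled over sets here, the intervals cover counting error only, and no test was made. Of the lowest class, 9 of 19 cells came from E11.5 and E12.5, against 3 of 52 and 1 of 92 in the others, and median fragments per cell were 520805, 467625 and 676256.

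**Figure D4:**
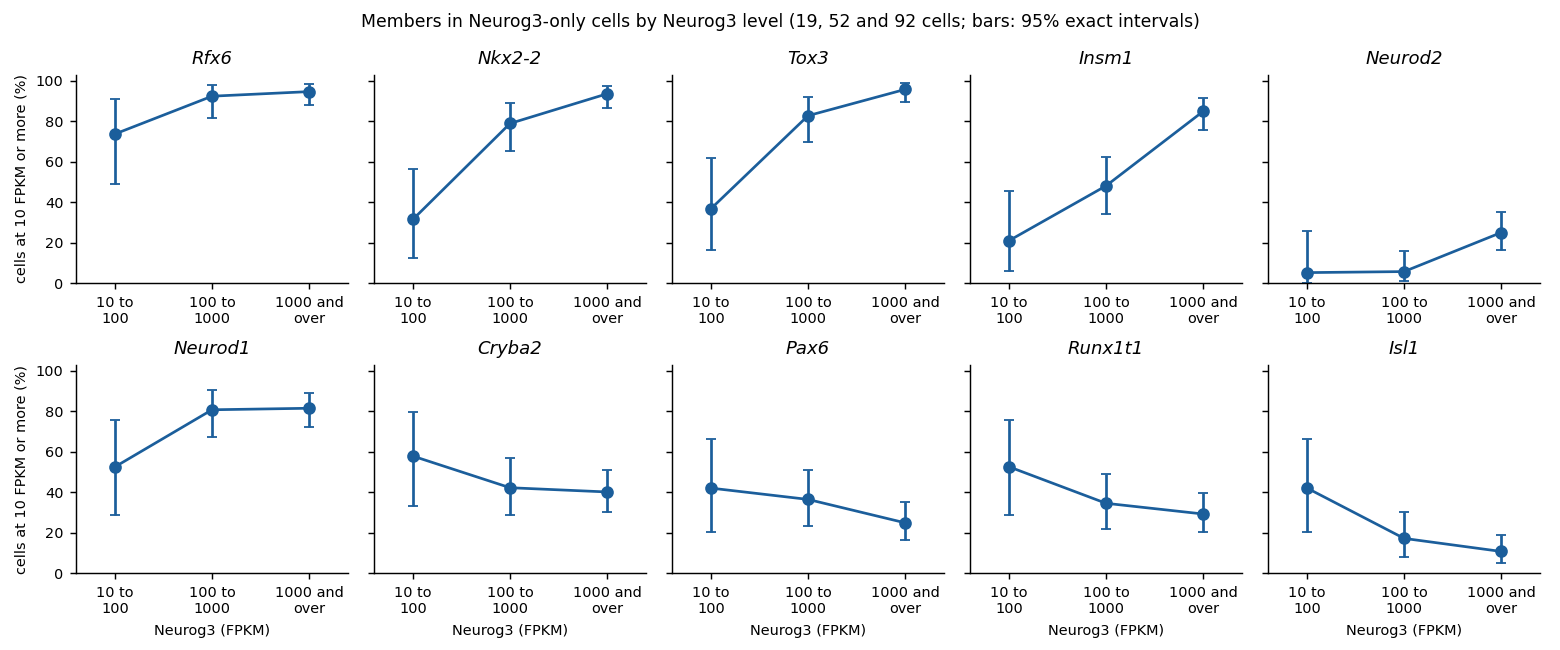
Share of Neurog3-only cells at 10 FPKM or more of each gene (vertical axis, percent, with 95% exact intervals) in 3 classes of Neurog3 level (horizontal axis, FPKM), from 19, 52 and 92 cells. Insm1, Nkx2-2 and Tox3 climb to 84.8%, 93.5% and 95.7% of cells, and Isl1 goes down to 10.9%.

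The number of the 10 genes present per cell summed these patterns. Neurog3-only cells held a median of 6 of the 10 (0 to 10), and Neurog3-and-Fev, Fev-only and hormone cells a median of 7. No Neurog3-and-Fev or Fev-only cell held fewer than 4. Of all 187 cells with Fev, 99.5% had Neurod1, 95.7% Pax6, 94.1% Cryba2 and 93.6% Rfx6.

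Cryba2 and Fev are neighbours. Cryba2 (chr1:74889934-74893143) and Fev (chr1:74881509-74885419) lie on the minus strand of chromosome 1, 4515 bases apart. All 60 Fev-only cells had Cryba2, and 72 of 79 Neurog3-and-Fev cells did. The converse did not hold, since 216 cells had Cryba2 without Fev, among them 70 Neurog3-only and 81 hormone cells. Among cells with Fev, 11 had no Cryba2, and 7 of these were Neurog3-and-Fev cells.

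The hormone that a cell made went with some of the 10 genes. Cells of the hormone state were put by their highest hormone into 42 insulin, 44 glucagon, 16 pancreatic polypeptide, 11 ghrelin and 5 somatostatin cells. Of all these cells, 43 had several hormones at 100 FPKM, so the classes are partly mixed. Cryba2 had set means of 569 to 708 FPKM in insulin cells (3 sets) and 46.3 to 382 in glucagon cells (6 sets), with no overlap. Insm1 stood at 12.4 to 17.3 FPKM in insulin and 2.78 to 10.7 in glucagon cells, also apart, and was present in 54.8% and 22.7% of cells. High values of both were not particular to insulin cells. The 1 set with at least 5 pancreatic polypeptide cells had 885 FPKM of Cryba2 and 24.03 of Insm1. Runx1t1 overlapped, at 13.4 to 20.7 against 7.77 to 78.6 FPKM, and Isl1 did too, at 483 to 693 against 408 to 1648. The insulin sets were of E14.5 and E15.5, while glucagon sets reached back to E11.5, and 2 sets held at least 5 cells of both classes. In E14.5 run 2 insulin and glucagon cells had 692 and 158 FPKM of Cryba2, 17.3 and 6.18 of Insm1, 13.4 and 43.5 of Runx1t1, and 693 and 850.3 of Isl1. In E15.5 run 2 they had 708 and 169 FPKM of Cryba2, 14.9 and 10.7 of Insm1, 20.7 and 67.8 of Runx1t1, and 483 and 899.9 of Isl1. Within both sets Cryba2 and Insm1 were higher, and Runx1t1 and Isl1 lower, in insulin cells, and no test was made. Neurod2 was at 0 in all classes. The planned test between insulin-only (31 cells) and glucagon-only cells (22 cells) could not be made, since no set held 5 of the latter.

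Over all kept cells, each of the 10 genes was less frequent on E11.5 and E12.5 than in any later set. Neurod2 was present in 0 of 73 and 0 of 90 cells on the early days and in 1.47 to 11.4% of cells from E13.5 on. Neurod1 was present in 19.2% and 7.78% of cells on the 2 early days and in 90.4 to 95.6% in the 6 later sets. Rfx6 went from 36.99% and 16.7% to 82.9 to 94.1%, and Cryba2 from 17.8% and 6.67% to 63.2 to 82.95%. From E13.5 to E15.5, Isl1, Pax6, Cryba2 and Neurod2 had higher shares on each later day in both runs, and those of Isl1 spanned the widest range. In run 1 and run 2 the Isl1 shares were 42.6% and 35.9% on E13.5, 52.1% and 52.9% on E14.5, and 68.2% and 76.8% on E15.5. Between E11.5 and E12.5 the shares of all the genes other than Neurod2 were lower on the later day, most so for Nkx2-2 (36.99% and 6.67%). E11.5 and E12.5 had more no-marker cells, 131 of 163, so a lower share of a gene and a smaller share of endocrine cells cannot be told apart in these means. Fitted slopes along day, with run as a term, were positive for 10 of 10 genes. They ran from 0.38 (Nkx2-2) to 1.20 ± 0.30 log2 a day (Cryba2, adjusted p = 0.261, limma), and no slope passed, as for all 16154 genes (0%; 1914 with an unadjusted p under 0.05).

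Within Neurog3-only cells the set means of Neurod2 were ordered by day. They were 0 on E11.5, 0.0851 on E12.5, 1.58 and 2.07 FPKM on E13.5, 4.82 and 5.93 on E14.5, and 9.04 and 10.6 on E15.5 (run 1 and run 2). Each day was above the one before in either run, and the slope was 0.92 ± 0.23 log2 a day (adjusted p = 0.682). No gene of 14789 passed that test (0%; 988 with an unadjusted p under 0.05), which has 8 sets and 5 residual degrees of freedom. The other slopes were 0.25 (Pax6) to 0.83 (Cryba2), and that of Runx1t1 turned to -0.12 in E13.5 to E15.5 alone.

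Between runs, 6 of the 10 genes had set means that did not overlap. In Neurog3-only cells Rfx6 had 375, 249 and 234 FPKM in run 1 (E13.5, E14.5 and E15.5) and 153, 96.4 and 79.7 in run 2. Every run 2 value was below every run 1 value, and the same held for Neurod1 (411, 206 and 315 against 170, 122.5 and 70.4), Isl1, Pax6 and Runx1t1. Over all 14789 genes, 15.8% had this pattern of 3 sets below 3. Nkx2-2 was the only one of the 10 with the reverse, 45.4, 42.3 and 43.3 against 85.1, 61.6 and 114 FPKM, a pattern seen in 5.06% of all genes. Neurod2, Insm1, Tox3 and Cryba2 overlapped between runs. By limma, 0 of the 10 and 1 of 14789 genes (0.00676%) passed in a fit with 2 residual degrees of freedom (2049 with an unadjusted p under 0.05), with Rfx6 at -1.40 ± 0.23 (adjusted p = 0.336) and Nkx2-2 at 0.93 ± 0.29 (adjusted p = 0.341). All genes had a median shift of -0.24. An exact permutation test of 3 sets against 3 cannot go below p = 0.1 (two-sided). The labels do not say what else differed between runs.

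**Figure D5:**
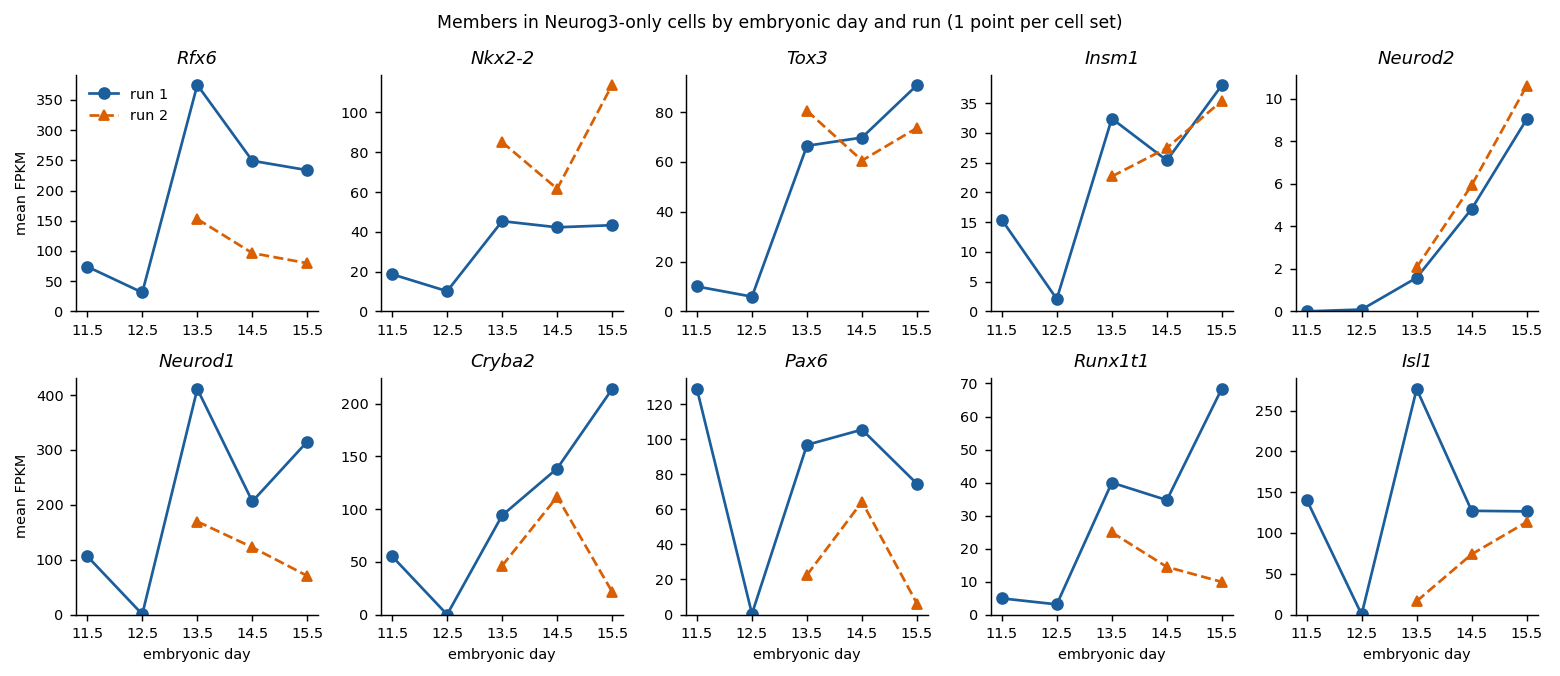
Mean FPKM in Neurog3-only cells (vertical axis) by embryonic day for each gene, with runs 1 and 2 as separate lines. Neurod2 is higher on each later day in both runs, from 1.58 and 2.07 on E13.5 to 9.04 and 10.6 on E15.5, while Rfx6 lies lower in run 2 on all 3 shared days and Nkx2-2 higher.

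Most of the gene values came from coding transcripts. Neurod1, Neurod2, Insm1 and Tox3 had 1 isoform each in the deposited isoform table. Rfx6-202 carried 97.7% of Rfx6 over all cells (84.3 to 99.4% over sets) and Cryba2-201 carried 94.99%. Isl1-201 carried 63.4% and Isl1-202 the rest, with 63.7% and 65.3% for the former in Neurog3-only and hormone cells. Pax6 was spread over 10 isoforms, led by Pax6-207 (35.4%) and Pax6-204 (26.2%). For Nkx2-2 the largest share, 44.5% (24.8 to 53.99% over sets), fell on Nkx2-2-204, a transcript of 378 bases annotated as processed and non-coding. FPKM divides by length, so a short transcript counts for more per fragment, and how fragments were split between isoforms is an estimate of the quantification.

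In the mm10 annotation (GENCODE M21) Neurod1 (chr2:79452521-79456751), Nkx2-2 (chr2:147177546-147194243), Insm1 (chr2:146221921-146225020) and Pax6 (chr2:105668900-105697364) lie on chromosome 2, and Rfx6 (chr10:51677756-51730432) is on chromosome 10, as is Neurog3 (chr10:62133090-62134763). Neurod2 (chr11:98325415-98329648), Isl1 (chr13:116298281-116309689), Runx1t1 (chr4:13743436-13893649) and Tox3 (chr8:90247040-90348343) stand alone. Some of the 10 share their place with other genes. Nkx2-2os, antisense to Nkx2-2, was at most at a mean of 1.38 FPKM in any state. Pax6os1, antisense to Pax6, went from 0.838 FPKM in Neurog3-only to 27.1 in hormone cells, and Elp4, which overlaps the Pax6 locus, from 14.2 to 39.03. The protocol does not state that strand was kept, and without strand reads of Pax6 and its antisense partner cannot be told apart. Pax6 itself had set means of 173 to 443 FPKM in hormone cells, where both were highest.

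Over the 40 state-by-set means, the genes most like each of the 10 were looked up among 6406 genes with a mean of at least 10 FPKM. These correlations are across means that share sets and are given as description. Neurod1 went with Pnmal1 (r = 0.961) and Plcxd3 (0.913), Pax6 with Hmgn3 (0.960) and the prohormone convertase gene Pcsk1 (0.915), and Cryba2 with the calcium-binding secretagogin gene Scgn (0.933) and the granin gene Chgb (0.924). Tox3 went with Pax4 (0.870), a repressor of the alpha-cell programme, and Btg2 (0.870). Neurod2 and Nkx2-2 shared Cbfa2t3 (0.776 and 0.807), a relative of Runx1t1. Rfx6 went with Ffar2 (0.873), Runx1t1 with Gipr (0.850) and Chgb (0.835), Insm1 with Miat (0.839) and Rph3al (0.826), and Isl1 with the gut hormone gene Pyy (0.839) and Tmsb15b2 (0.832). Among the 10 themselves Pax6 and Cryba2 were most alike (0.930), and Neurod2 and Pax6 least (-0.23).

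Of 20 other islet transcription factors tested, 1 rose from no-marker to Neurog3-only cells: Pax4, from a mean of 89.3 to 1092 FPKM (2.96 ± 0.54, adjusted p = 0.00348), and none fell. Pou3f4 alone rose into the Neurog3-and-Fev state (2.28 ± 0.55, adjusted p = 0.0413). Into the hormone state Irx2, an alpha-cell factor, rose (2.79 ± 0.59, adjusted p = 0.014) and Pax4 fell (-2.24 ± 0.55, adjusted p = 0.0391). The medians of the 20 were -0.02, 0.32 and -0.40 in these 3 steps.

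Of 16 relatives and binding partners tested, 3 rose in the first step and none in the others. Cbfa2t3 and Cbfa2t2, both of the Runx1t1 family, rose by 2.48 ± 0.45 and 1.77 ± 0.37 (adjusted p = 0.00313 and 0.00966), and Crybb1, a crystallin gene like Cryba2, by 2.70 ± 0.70 (adjusted p = 0.0486). Cbfa2t3 had its highest mean, 36.9 FPKM, in Neurog3-only cells, while that of Runx1t1, 138 FPKM, was in Neurog3-and-Fev cells. Of 24 genes of secretion and islet function, Ptprn (-2.84 ± 0.62, adjusted p = 0.0119) and Pam (-2.0 ± 0.46, adjusted p = 0.0186) were lower in Neurog3-only than in no-marker cells. On E13.5 to E15.5 the no-marker cells were already rich in endocrine genes. The median sum of 12 endocrine markers was 6963 FPKM in them and 1890 in Neurog3-only cells of those days. The part of these cells in the falls was not tested. Chga (3.25 ± 0.79, adjusted p = 0.0427) and Cpe (1.86 ± 0.46, adjusted p = 0.045) rose from Neurog3-only to Neurog3-and-Fev cells, with Pax6, Runx1t1 and Cryba2. Iapp, Scg2 and G6pc2 rose into the hormone state by 6.28 ± 1.11, 4.70 ± 0.75 and 3.86 ± 0.84 (adjusted p = 0.00273, 0.000922 and 0.0196), a step in which none of the 10 genes was called.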

How the data were processed

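Single-cell cDNA was made by SMART-seq from sorted cells and libraries by Nextera XT, per the labels' protocols. The authors deposited gene and isoform values in FPKM, fragments scaled to transcript length and depth, with the fragments of each cell in the labels. The submitters' processing notes name TopHat2 2.0.13, Cufflinks 2.2.0 and mm10, with no role or order. Counts are not used here, so no count model was fitted. All columns of values matched a cell (0 unmatched).

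Cells with at least 100000 fragments and 1500 genes at 1 FPKM were kept. FPKM was averaged over the cells of a state in a cell set (5 cells or more) and log2(mean + 1) was fitted for all genes with a mean of at least 1 FPKM with limma 3.58.1 in R 4.3.3 (trend, set as a block over 40 means, 27 residual degrees of freedom, two-sided, Benjamini-Hochberg over all genes, threshold 0.05). Fold changes on this scale understate those of low genes. Slopes along day had run as a term. The labels do not say whether sets or runs share embryos, so p-values do not measure a spread between animals. For the steps between states they measure how unevenly the differences repeated over sets, including the noise of means of few cells. For slopes along day they measure the spread between sets left by the fit, and for runs how unevenly the difference repeated over days. Each of these may be technical. All states of a set enter the fit, and the block pairs them by their shared set.

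The fitting steps were checked on simulated data. Intervals are 95% exact binomial intervals and cover counting error only. A gene is absent below 10 FPKM, which in single cells includes missed transcripts. Named genes were all 10, up to 4 called genes of each list or else the 2 with the largest difference, and for likeness the 2 highest correlations, of which 1 is not reported here. The 10 genes and the lists were chosen with earlier results of these data known. The test of insulin-only against glucagon-only cells could not be fitted. Doublets were not removed, as each cell was sorted into a well. All 96 index pairs were used in more than 1 set and none more than once within a set. The 2 most alike cells of different runs (both E14.5) had r = 0.874, above the next pair (0.833).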

Additional observations from a re-analysis of the deposited data

Results flagged for a closer look

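Of 59 groups of set means tested for a value apart from the rest, 7 had one, each of them a high value. The rule gives about 1 in 20 by chance only for independent, normally spread values. These are unlogged FPKM means, some near 0, so the count is not set against chance. In Fev-only cells of E13.5 run 1, Pax6 (1061 FPKM, next highest 431), Cryba2 (1222, next 669) and Tox3 (108.2, next 63.6) all stood above the other 5 sets. That set has 8 such cells. For Neurod2 the high sets were E14.5 run 1 in Fev-only cells (1.38 FPKM, from 1 cell above 10 FPKM), E15.5 run 2 in Neurog3-and-Fev cells (8.567, next 3.09) and E15.5 run 1 in no-marker cells (0.1985, next 0.0658). Nkx2-2 in hormone cells was high in E13.5 run 2 (46.05 FPKM, next 23.4).

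Between Fev-only and hormone cells Nkx2-2 went opposite ways in the runs: the mean difference over 3 sets was 7.16 FPKM in run 2 and -14.47 in run 1, with every set of a run in the same direction. The difference between runs was not tested.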

How the results depend on the processing

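The number of the 10 genes called from no-marker to Neurog3-only cells was 4. It was 2 without a filter on low values or with hormones from 10 FPKM, 7 with cells averaged on the log scale or hormones from 1000 FPKM (5 rises with Tox3, and falls of Isl1 and Pax6, in fits that called 500 and 469 of all genes), 6 in E13.5 to E15.5 alone (4 rises and 2 falls), 0 with Neurog3 and Fev from 1 FPKM, with at least 10 cells or in either run alone, and 0 to 4 without single sets. Without the replicate block of set it was 1 (Nkx2-2). Of all genes, 1.14% were called in the main fit, 0.46% without a filter and 0.666% with hormones from 10 FPKM. With Neurog3 and Fev from 1 FPKM it was 0.0126%, and with at least 10 cells 1.2%. Run 1 alone gave 0.108%, run 2 alone 0.289% and the fit without the block 0.27%. From Neurog3-only to Neurog3-and-Fev cells the number was 3. It was 1 with a pseudocount of 0.1 or no filter, 0 with Neurog3 and Fev from 50 FPKM or in run 1 alone, 1 to 4 without single sets and 1 without the block (Runx1t1). Of all genes, 0.471% were called with a pseudocount of 0.1, 0.242% with no filter and 0.471% without the block. With Neurog3 and Fev from 50 FPKM it was 0.113%, and in run 1 alone 0.00675%. Into the hormone state it was 0, and 1 with log-scale averages (Isl1), hormones from 1000 FPKM (Runx1t1) or E13.5 to E15.5 alone (Rfx6), in fits that called 1.99%, 0.471% and 1.11% of all genes. The number of genes with onset in no-marker cells was 7. It was 4 with a gene present from 50 FPKM and 0 with Neurog3 and Fev from 1 FPKM, with onset at 75% or without that state.

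Signs changed in 7 single values, all far from the threshold: Neurod2 from Neurog3-and-Fev to Fev-only cells (0.878, Neurog3 and Fev from 50 FPKM), Insm1 (-0.035, E13.5 to E15.5) and Runx1t1 (-0.07, run 2) along day in all cells, and along day in Neurog3-only cells Runx1t1 (-0.122 with at least 10 cells and in E13.5 to E15.5, -0.625 in run 2) and Tox3 (-0.064, run 2). These counts follow only gene results with an unadjusted p under 0.05 in the main fit (limma). Of their other values, 700 kept side and sign, 77 lost the call and 14 gained it. The falls of Isl1, Pax6 and Cryba2 from no-marker to Neurog3-only cells, called in some settings, are outside these counts. Sign changes of the results left out were not counted. Over all genes the calls in the 4 steps ranged from 2 to 842, 1 to 298, 1 to 20 and 5 to 317. The cause of these changes was not tested. Alternatives by run and without the no-marker state were added after the data were seen. Fragments per cell limit what can be seen of Neurod2 and other low genes.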

Other observations

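The 64 hormone cells that still had Neurog3 held most of the 10 genes. Their mean shares over 6 sets were 88.6% ± 6.64 (SD) for Neurod1, 85.5% ± 15.3 for Tox3, 82.1% ± 16.2 for Rfx6, 80.1% ± 19.9 for Pax6, 78.9% ± 24.5 for Isl1, 78.1% ± 24.5 for Nkx2-2 and 73.1% ± 14.6 for Cryba2. Insm1 (42.3% ± 22.6) and Neurod2 (2.58% ± 4.01) were scarcer. Isl1 had set means of 448 to 2007 FPKM in them, above its Neurog3-only sets (0.109 to 277), and Nkx2-2 had 27.3 to 143 FPKM, against 9.86 to 46.1 in hormone cells without Neurog3. No test was made of these cells.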
